A study of Mus musculus with 16 samples.

Results

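Fah, Tesc and Plbd1 are 3 genes whose array signal was far lower in hearts of PPARalpha-/- mice than in hearts of wild-type mice, and none of them encodes an enzyme of fatty acid oxidation. They were chosen by that fall, in the same comparisons of genotypes that are described here, so their genotype differences are given as a description with no test. The members are the 4 probe sets that map to exactly 1 of these symbols, of 45101 on the array, and the 3 genes they measure are among 18193 genes with a probe set of their own. All 4 probe sets were among the 27022 that passed a filter on dim signal, and no array had a value below the floor set on low signal. The name of Plbd1, phospholipase B domain containing, places it nearer to lipid breakdown than the other 2 genes.

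RNA was measured in the left ventricle of PPARalpha-/- mice (KO) and wild-type mice (WT), 28 days after transverse aortic constriction (TAC), which narrows the aorta and overloads the ventricle with pressure, or after a sham operation. The 4 groups were KO sham, WT sham, KO TAC and WT TAC, with 4 arrays each, and neither genotype carried any other allele or agent that the labels name. The labels give no strain, sex or age, and do not say whether the arrays of a group came from separate animals, so the spread between arrays may be partly technical. The labels do not describe how the knockout allele was made.

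PPARalpha is a nuclear receptor that binds fatty acids and their derivatives and, paired with a retinoid X receptor, activates genes of fatty acid uptake and oxidation in heart and liver. Fah encodes fumarylacetoacetate hydrolase, the last enzyme of tyrosine breakdown, which splits fumarylacetoacetate into fumarate and acetoacetate and is best known from the liver. Tesc encodes tescalcin, a calcium-binding protein with EF hands that can inhibit the phosphatase calcineurin. Plbd1 encodes a relative of the lysosomal protein Plbd2, and in humans it was found in neutrophils.

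The 250 bases upstream of each start site are shown because the PPARalpha partner pair is known to bind direct repeats of AGGTCA spaced by a single base, and because the 3 genes share a fall in mice without PPARalpha. They are from RefSeq on build GRCm38.p6, written 5′ to 3′ on the strand of the gene: Fah at chr7:84605943-84606192 on the minus strand, Tesc at chr5:118027493-118027742 on the plus strand and Plbd1 at chr6:136661894-136662143 on the minus strand. Capitals would mark a match to the repeat or to its single site, and there are none.
Fah: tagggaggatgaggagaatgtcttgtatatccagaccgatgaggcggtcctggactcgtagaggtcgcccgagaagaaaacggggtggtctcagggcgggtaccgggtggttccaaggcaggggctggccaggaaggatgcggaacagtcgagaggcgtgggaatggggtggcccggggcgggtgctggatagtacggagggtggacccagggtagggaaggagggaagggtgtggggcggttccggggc
Tesc: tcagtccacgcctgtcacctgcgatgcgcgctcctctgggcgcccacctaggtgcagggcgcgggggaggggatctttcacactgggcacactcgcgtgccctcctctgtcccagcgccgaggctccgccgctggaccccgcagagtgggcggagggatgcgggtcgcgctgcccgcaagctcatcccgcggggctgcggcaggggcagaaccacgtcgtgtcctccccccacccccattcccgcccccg
Plbd1: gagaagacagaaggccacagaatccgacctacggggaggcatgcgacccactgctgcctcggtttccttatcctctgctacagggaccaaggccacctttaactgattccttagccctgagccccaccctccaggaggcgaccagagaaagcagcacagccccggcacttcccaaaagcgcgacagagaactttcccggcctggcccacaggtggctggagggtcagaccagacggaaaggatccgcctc
The letters AGGTCA, then any base, then AGGTCA again were searched on both strands from 250 bases before to 50 bases after the start. No member held them, either exactly or with up to 2 mismatches in the 12 fixed letters, and the nearest stretch of each promoter differed at 4 of them. Of 32851 promoters of the same length, 0.0396% held an exact match and 3.86% a match with up to 2 mismatches. The single site AGGTCA, which overlaps the repeat, was in none of the 3 windows and in 16.3% of all promoters. The GC content of the 250 bases was 64.4% for Fah, 73.2% for Tesc and 60.8% for Plbd1, against a median of 52.4% over all promoters.

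Fah signal was low on every KO array and high on every WT array. In sham hearts, the intensity of its probe set 1417220_at was 289.9, 225.6, 298.1 and 249.2 on the KO arrays, against 1127.8, 975.8, 1057.6 and 1083.1 on the WT arrays. In TAC hearts it was 294.2, 276.3, 274.4 and 303.4 on the KO arrays, against 948.5, 966.9, 831.8 and 911.1 on the WT arrays. The groups did not overlap in either setting, and the lowest WT array lay 3.27-fold above the highest KO array in sham and 2.74-fold above it in TAC. The mean was 265.7 ± 34.2 in KO sham and 1061 ± 63.8 in WT sham, and 287.1 ± 14.1 in KO TAC and 914.6 ± 59.9 in WT TAC (SD, n = 4 each). The log2 difference, KO minus WT, was -2.005 ± 0.11 (SE) in sham and -1.67 ± 0.11 in TAC, so that KO sham hearts held 24.9% of the WT signal, a 4.01-fold lower level, and KO TAC hearts a 3.18-fold lower level.

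Tesc has 2 probe sets on the array, and both gave the same picture; they measure the same RNA and are not independent. With 1418744_s_at, KO sham arrays read 1669, 2516.6, 1524 and 1579.8, against 7971.6, 7451.4, 7151.9 and 6665.4 on WT sham arrays. Under TAC the KO arrays read 1879.9, 2354.3, 2177.4 and 1584.2, against 6090.9, 7389.5, 7684.9 and 8416.9 on the WT arrays. Every KO array was below every WT array, by at least 2.65-fold in sham and 2.59-fold in TAC. The log2 difference, KO minus WT, was -2.03 ± 0.17 in sham, a 4.09-fold lower level, and -1.89 ± 0.17 in TAC, a 3.72-fold lower level.

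The second Tesc probe set, 1418743_a_at, read 414.4, 559.9, 404.5 and 460 on KO sham arrays, against 2043.3, 1816.9, 2391.6 and 1558.9 on WT sham arrays. It read 402.5, 579.4, 574.8 and 405.3 on KO TAC arrays, against 1463.3, 1664.3, 1508.3 and 1911 on WT TAC arrays. Its log2 difference was -2.08 ± 0.18 in sham and -1.75 ± 0.18 in TAC, with no overlap between genotypes. Some arrays stood high or low on both probe sets: replicate 2 was the highest of KO sham on both probe sets, replicates 2 and 3 the higher pair of KO TAC, and replicate 4 the highest and replicate 1 the lowest of WT TAC. In WT sham, replicate 4 was the lowest on both, but replicate 1 was the highest on 1418744_s_at and replicate 3 on 1418743_a_at. Replicates 2 and 3 of KO TAC also had the lowest hybridisation spike-in signal of all 16 arrays, a mean log2 of at most 12.13, and its part in their Tesc signal was not tested. Without these 2 arrays and WT TAC replicate 3, which had the highest spike-in signal, the TAC difference was -2.07 for 1418744_s_at and -2.05 for 1418743_a_at.

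Plbd1 had the smallest of the 3 falls in sham. The intensity of its probe set 1448786_at was 1423.9, 1530.9, 1221 and 1114.1 on KO sham arrays, against 3144.7, 3692.5, 3488.5 and 3723 on WT sham arrays. In TAC hearts it was 1040.3, 967, 879.3 and 1252.2 in KO, against 3312.9, 3182.1, 3803.2 and 3495.5 in WT. The lowest WT array stood 2.05-fold above the highest KO array in sham and 2.54-fold above it in TAC. The log2 difference, KO minus WT, was -1.42 ± 0.13 in sham, a 2.67-fold lower level, and -1.75 ± 0.13 in TAC, a 3.35-fold lower level.

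**Figure D1:**
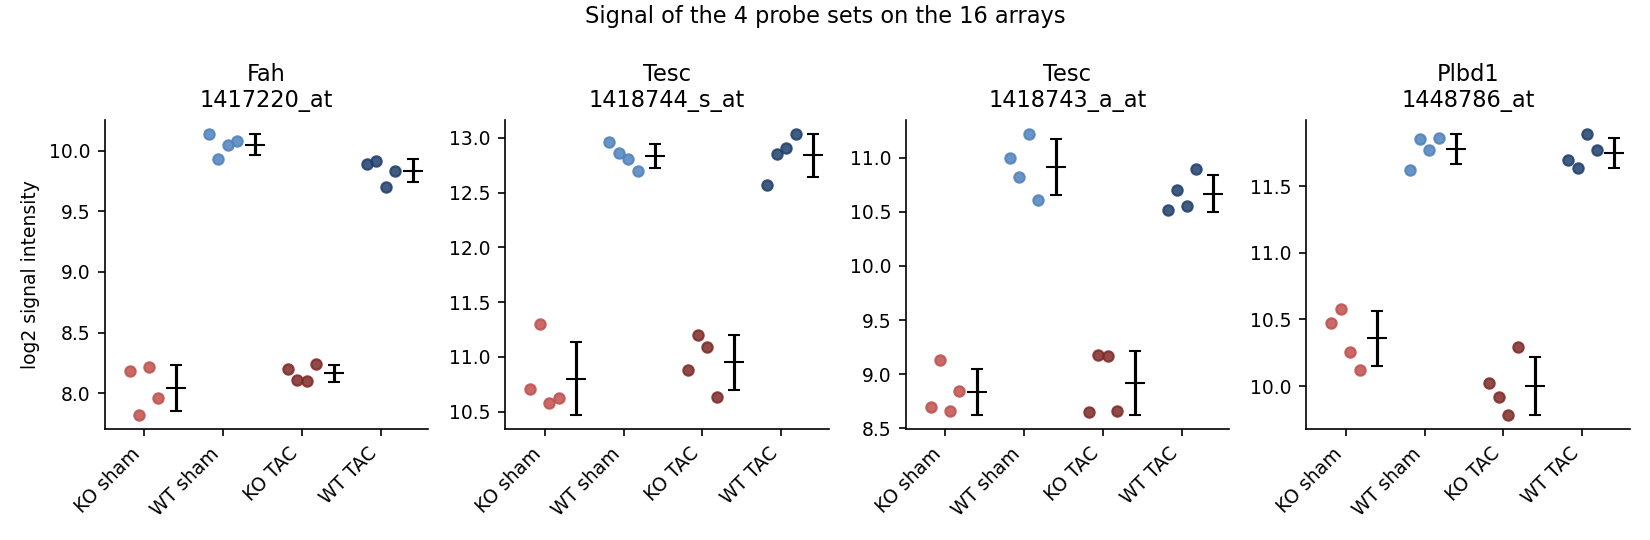
Log2 signal intensity of the 4 probe sets (vertical axes, 1 panel each, scales differ) on each array of the 4 groups; each point is an array, and the bar beside the points is the mean ± SD of 4 arrays. In every panel the KO arrays lie below all WT arrays of both operations.

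In all, the 4 probe sets were lower in KO without overlap in both settings, as were 2.31% of all tested probe sets in sham and 4.02% in TAC. Across all 27022 tested probe sets, limma with Benjamini-Hochberg adjustment called 0.278% lower in KO and 0.0518% higher in KO in sham, and 0.507% lower and 0.414% higher in TAC, where the higher calls outnumbered the lower with the dimmest 60% of probe sets left out (228 against 194). Since these comparisons chose the genes, nothing is read from the shares. Among 12980 genes, each by its brightest probe set, Tesc ranked 12, Fah 13 and Plbd1 48 by the size of the fall in sham, and Tesc ranked 31, Plbd1 40 and Fah 50 in TAC. By the difference over its standard error, Fah ranked 1, Tesc 6 and Plbd1 7 in sham, and the ranks in TAC were 3 for Fah, 7 for Plbd1 and 9 for Tesc. In whole tissue, fewer cells of a type and less RNA per cell cannot be told apart.

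**Figure D2:**
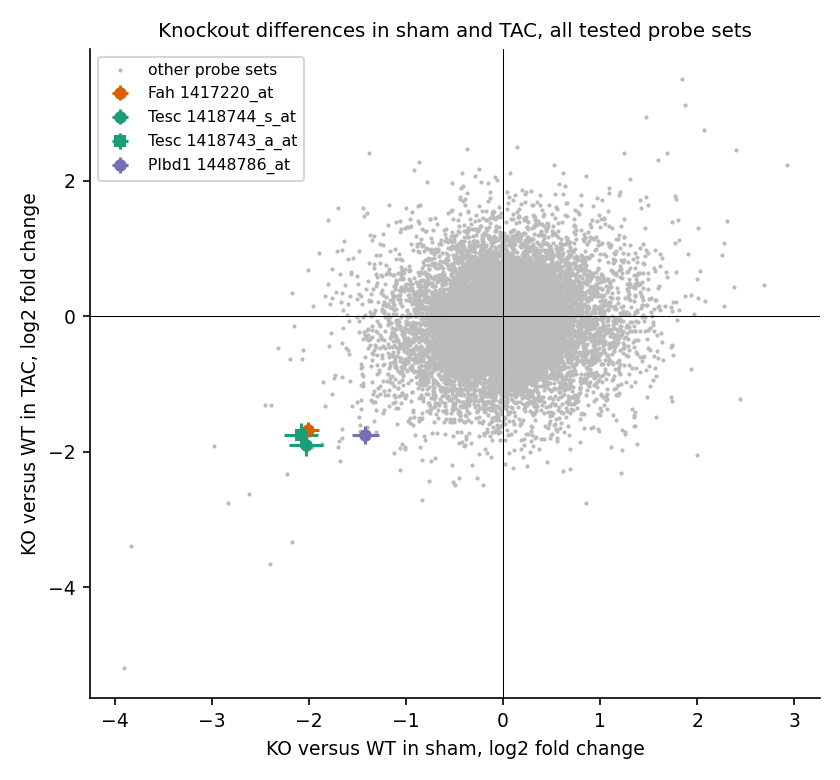
Log2 difference, KO minus WT, in sham (horizontal axis) and in TAC (vertical axis) for all tested probe sets (grey) and the 4 probe sets of Fah, Tesc and Plbd1 (coloured, with SE bars). The 4 coloured points lie between -2.08 and -1.42 in sham and between -1.89 and -1.67 in TAC.

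The response to TAC was tested, because the average of the TAC effects in KO and WT is independent of the genotype differences that chose the genes. None of the 4 probe sets passed limma's test, in which 144 of 27022 probe sets, 0.533%, were called. The log2 difference, TAC minus sham, averaged over genotypes was -0.05 ± 0.08 for Fah (adjusted p = 0.885), 0.08 ± 0.12 (adjusted p = 0.875) and -0.08 ± 0.12 (adjusted p = 0.873) for the Tesc probe sets and -0.19 ± 0.10 for Plbd1 (adjusted p = 0.515). The 95% interval of the TAC over sham ratio was 0.862 to 1.09 for Fah, 0.880 to 1.27 and 0.786 to 1.14 for Tesc, and 0.761 to 1.01 for Plbd1. The test does not show that TAC left them unaltered, but these intervals bound its average effect well within the size of the genotype differences.

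Within a genotype, the TAC comparisons share their arrays with the genotype comparisons. In KO hearts, where 0.729% of probe sets were called, Plbd1 was lower after TAC by a log2 difference of -0.36 ± 0.13, which did not pass (adjusted p = 0.291, against an unadjusted p of 0.0194). Its KO TAC arrays ran between 879.3 and 1252.2 and its KO sham arrays between 1114.1 and 1530.9, so the groups overlapped. Fah gave 0.12 ± 0.11 (adjusted p = 0.726) and the Tesc probe sets 0.15 ± 0.17 (adjusted p = 0.795) and 0.08 ± 0.18 (adjusted p = 0.905) in KO.

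In WT hearts no probe set was called by limma, although 1808, or 6.69%, had an unadjusted p under 0.05. Fah was the member whose groups did not overlap, with WT TAC arrays between 831.8 and 966.9 and WT sham arrays between 975.8 and 1127.8; 1.59% of probe sets were likewise lower without overlap. Its log2 difference was -0.21 ± 0.11 (adjusted p = 0.757). The Tesc probe sets gave 0.01 ± 0.17 (adjusted p = 0.995) and -0.24 ± 0.18 (adjusted p = 0.836), and Plbd1 gave -0.03 ± 0.13 (adjusted p = 0.983).

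The KO minus WT difference of the TAC response is the same quantity as the change of the genotype difference under TAC, so it carries no test here. It was 0.33 ± 0.15 for Fah, 0.14 ± 0.25 and 0.33 ± 0.25 for the Tesc probe sets and -0.33 ± 0.19 for Plbd1 on the log2 scale. As measured, the genotype gap of Fah was thus narrower in TAC than in sham, and that of Plbd1 wider. The 95% intervals, given only as a description, were 0.002 to 0.667 for Fah and -0.737 to 0.079 for Plbd1, which includes 0. The Plbd1 gap in TAC was -1.54 without the 3 arrays of outlying spike-in signal, and -1.56 with arrays centred on their medians. In the main fit it was -1.75 in TAC and -1.42 in sham. For Fah, the narrower gap came with a lower mean in WT TAC than in WT sham and a slightly higher mean in KO TAC than in KO sham.

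**Figure D3:**
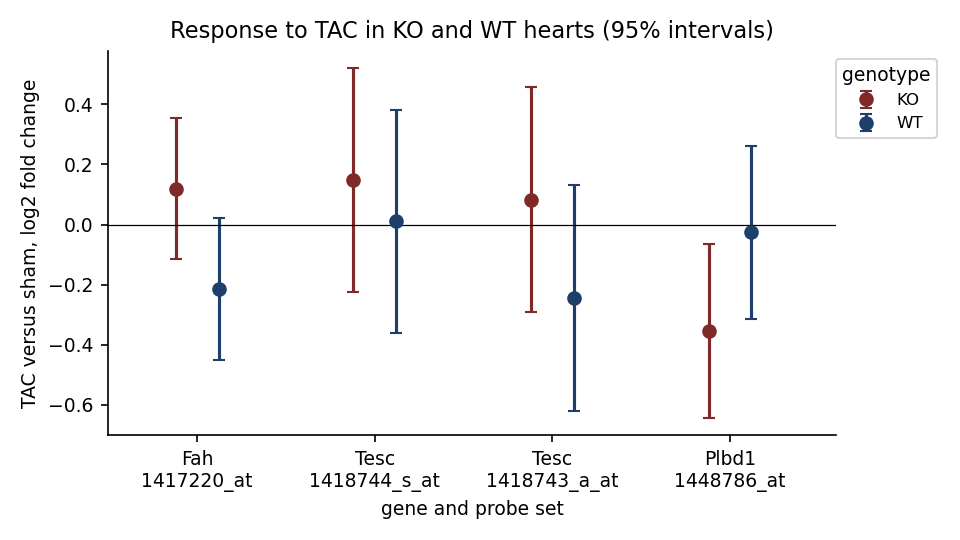
Log2 difference, TAC minus sham, of each probe set in KO hearts (red) and WT hearts (blue), with 95% intervals from the fit to 16 arrays. All intervals cross 0 except that of Plbd1 in KO, which did not pass the test after adjustment.

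No other gene of the tyrosine breakdown list passed the test. Of its 7 genes, 5 were tested and 0 were called in any comparison. The tested genes were Tat, Hpd and Gstz1 of tyrosine breakdown itself, and Qdpr and Pcbd1, which serve a pterin cofactor. Signal of Tat, Hpd and Pcbd1 was low, with group means between 78.0 and 218.1, so their lack of calls says little. The list median was 0.06 in sham and 0.08 in TAC (log2, KO minus WT), beside 0.01 and 0.00036 over all probe sets. Gstz1, which makes the substrate of Fah, had 695.8 ± 96.3 in KO sham and 687.9 ± 47.0 in WT sham (SD, n = 4 each), a log2 difference of 0.01 ± 0.13, and 0.08 ± 0.13 in TAC. Tat, the aminotransferase that starts tyrosine breakdown, stood at 0.61 ± 0.25 in sham (adjusted p = 0.648), and Pcbd1, a dehydratase that recycles a pterin cofactor, at 1.57 ± 0.38 in TAC (adjusted p = 0.0775). The list count in TAC stayed at 0 in 24 of 29 alternatives and was 1 in the others, among them the fit without WT TAC replicate 3.

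The list of 4 genes in the further use of fumarate and acetoacetate, the products of Fah, showed no call in sham. In TAC, Acat1, which cleaves acetoacetyl-CoA, was lower by -0.44 ± 0.10 (adjusted p = 0.0491), with 14037 ± 307 in KO TAC and 19029 ± 1333 in WT TAC. In sham its difference was -0.38 ± 0.10 (adjusted p = 0.201). The TAC call was lost in 23 of 29 alternatives, among them 15 of the 16 that left out a single array, with an adjusted p of up to 0.421. Bdh1, which interconverts acetoacetate and hydroxybutyrate, gave 0.52 ± 0.16 in sham (adjusted p = 0.398).

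Of 10 kin and partners of tescalcin, 6 were tested, and 0 were called in sham, where their median was -0.07. Rcan1, a regulator of calcineurin whose transcription calcineurin drives, was higher in KO TAC hearts at 11080 ± 1799 than in WT TAC hearts at 5806 ± 1133 (SD, n = 4 each). The log2 difference was 0.94 ± 0.19 (adjusted p = 0.0303), and in sham it was -0.42 ± 0.19 (adjusted p = 0.698). In KO hearts Rcan1 rose after TAC by 1.70 ± 0.19 (adjusted p = 0.000913). The genotype call in TAC was lost without replicate 2, 3 or 4 of KO TAC and without replicate 1, 2 or 4 of WT TAC, with adjusted p between 0.0545 and 0.104 and differences between 0.84 and 0.98. Calcineurin subunit genes Ppp3ca and Ppp3r1 gave 0.02 ± 0.17 and -0.06 ± 0.12 in sham, and neither was called in any comparison of genotypes.

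Among 29 genes of lysosomal hydrolases and membrane proteins, 26 were tested, with medians of -0.03 in sham and 0.10 in TAC. Plbd2, the relative of Plbd1, had 320.2 ± 68.3 in KO sham and 443.5 ± 87.5 in WT sham, a log2 difference of -0.47 ± 0.18 that did not pass (adjusted p = 0.587), and gave 0.06 ± 0.18 in TAC (adjusted p = 0.911). Scarb2, the receptor that carries glucocerebrosidase to lysosomes, was the gene called lower in both settings. Its signal was 2663 ± 393 in KO sham and 6029 ± 947 in WT sham, a log2 difference of -1.18 ± 0.15 (adjusted p = 0.00175), and the TAC difference was -1.09 ± 0.15 (adjusted p = 0.00238). Fitted to the compared arrays alone, the Scarb2 calls missed the threshold (adjusted p = 0.0583 in sham and 0.0532 in TAC), as did the TAC call with arrays centred on their medians (adjusted p = 0.0599). These values are from its brightest probe set. A dimmer Scarb2 probe set gave log2 differences of -1.46 in sham and -1.23 in TAC, with no test given here. It read 1114 to 1201.4 in KO sham and 2881.4 to 3346.4 in WT sham. In TAC it read 1222.6 to 1390.7 in KO and 2522.1 to 3570.7 in WT. Ctsz, the lysosomal protease cathepsin Z, went the other way in TAC, with 3531 ± 279 in KO and 2056 ± 262 in WT, a log2 difference of 0.78 ± 0.13 (adjusted p = 0.0123), which missed the threshold without the 3 arrays set apart by spike-in signal (adjusted p = 0.222).

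**Figure D4:**
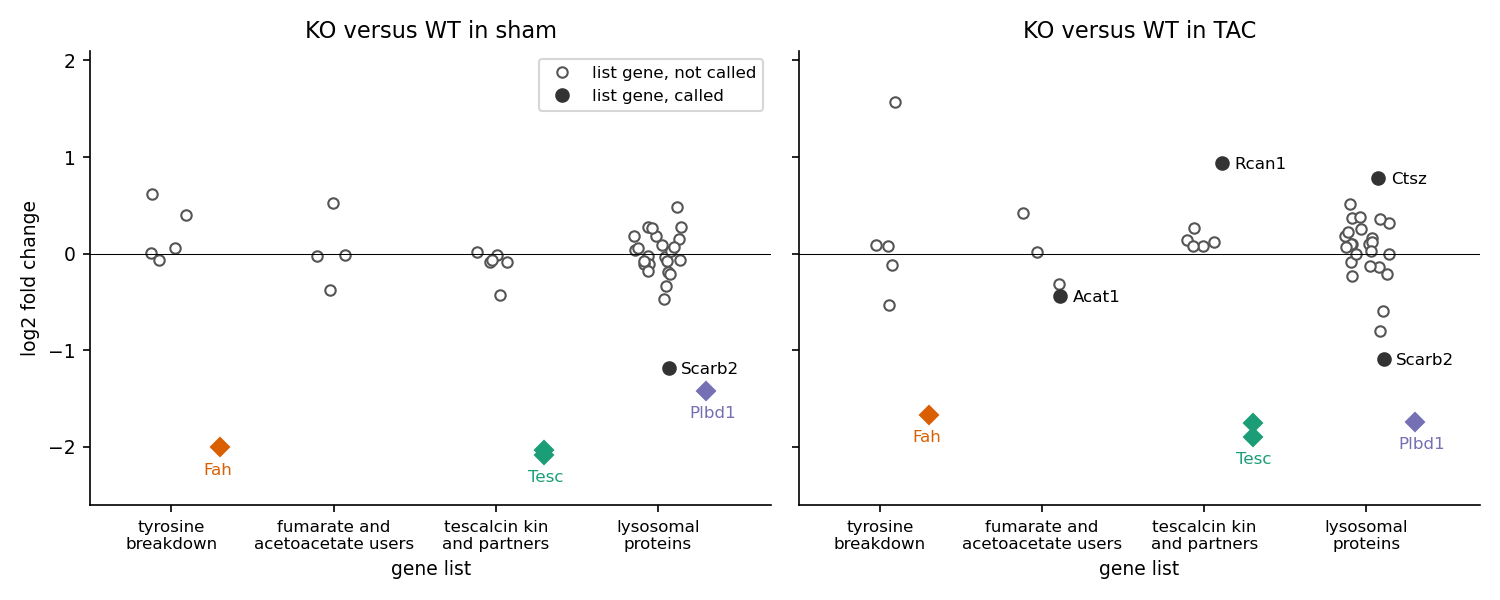
Log2 difference, KO minus WT, of the genes of 4 lists (circles, filled where called by limma) in sham and in TAC, with Fah, Tesc and Plbd1 (diamonds) drawn beside the list closest to their roles. Scarb2 is the list gene called lower in both panels. The tested genes of the tyrosine breakdown list run from -0.07 to 0.61 in sham and from -0.54 to 1.57 in TAC, with none called. The value of 1.57 is that of Pcbd1, whose signal was low.

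The gene whose profile lay nearest to each of the 3 was Slc25a20, the carnitine-acylcarnitine carrier of the mitochondrial inner membrane. Likeness was the root mean square difference of log2 signal over the 16 arrays, after each gene's own mean was removed, among 12979 other genes. Slc25a20 was at 0.194 from Fah, 0.274 from Tesc and 0.198 from Plbd1. Decr1, the mitochondrial dienoyl-CoA reductase of fatty acid oxidation, came next at 0.200, 0.313 and 0.219 in the same order of genes, counting only genes other than the 3 and taking its nearer probe set each time.

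The nearest 5 of Fah and of Tesc were the same genes, with 1700120C14Rik, Ppara and Scarb2 beside Slc25a20 and Decr1. Ppara was at 0.270 from Fah and 0.386 from Tesc, and Scarb2, by its dimmer probe set, at 0.284 and 0.377. Plbd1 had Ech1, an enoyl-CoA isomerase, at 0.241, Cpt2, which rebuilds acyl-CoA inside mitochondria, at 0.257 and 1700120C14Rik at 0.266 among its nearest 5. Between members, the distance was 0.277 from Fah to the nearer Tesc probe set, 0.294 from Fah to Plbd1 and 0.361 from 1418744_s_at of Tesc to Plbd1. Genes with a fall of like size come out near each other in this measure by construction.

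**Figure D5:**
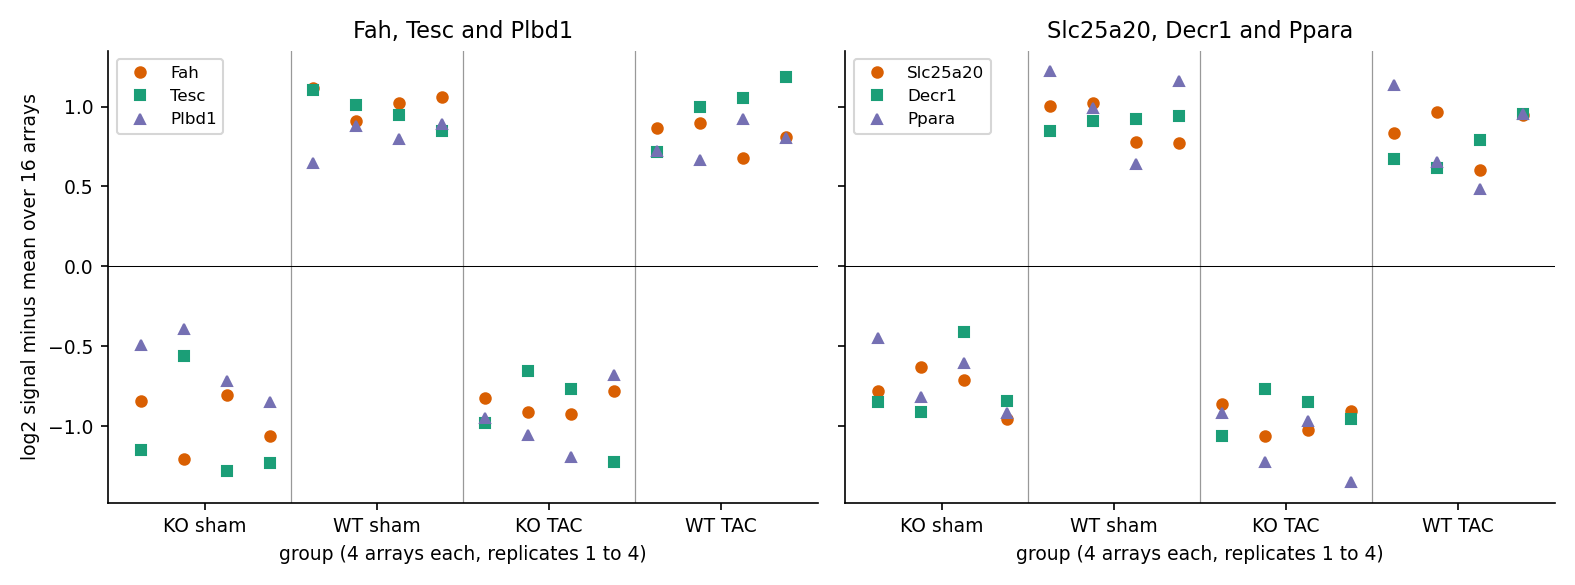
Log2 signal minus the mean over 16 arrays (vertical axis) on each array in order of group and replicate, for Fah, Tesc and Plbd1 (left) and for Slc25a20, Decr1 and Ppara (right). All 6 genes lie below 0 on the KO arrays and above 0 on the WT arrays.

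The 3 genes lie on chromosomes 7, 5 and 6, apart from Ppara on chromosome 15. Of the 10 nearest genes with a tested probe set on each side of a member, 0 of 20 were called in sham for any of the 3, with medians of -0.02 around Fah, -0.07 around Tesc and 0.09 around Plbd1. In TAC, 1 of 20 was called around each, against 0.921% of all probe sets called. These were Gm30873 beside Fah at 2.06 ± 0.36 (adjusted p = 0.015), Fbxo21 beside Tesc at -0.76 ± 0.13 (adjusted p = 0.0119) and Emp1 near Plbd1 at 0.94 ± 0.19 (adjusted p = 0.0365). The call of Gm30873 was lost without WT TAC replicate 4 (adjusted p = 0.0522), and that of Emp1 in 11 of 16 fits that left out a single array (adjusted p between 0.0514 and 0.120). In TAC, Fbxo21, a ubiquitin ligase subunit, had the same sign as Tesc, while Gm30873 and Emp1, a membrane protein, were higher in KO. In sham, where none was called by limma, Fbxo21 was at -0.58 ± 0.13 (adjusted p = 0.0979). Gm30873 stood at -0.08 ± 0.36 (adjusted p = 0.990) and Emp1 at -0.36 ± 0.19 (adjusted p = 0.823) in sham.

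Ppara, the targeted gene, was lower in KO with all 3 tested probe sets. The differences were -1.70 ± 0.18, -2.18 ± 0.25 and -1.23 ± 0.19 in sham and -1.92 ± 0.18, -3.33 ± 0.25 and -1.38 ± 0.19 in TAC, all called by limma (the highest adjusted p was 0.0128). The call with -1.23 in sham missed the threshold without KO sham replicate 1 (adjusted p = 0.0514) or WT sham replicate 1 (adjusted p = 0.0536). Nnt, the mitochondrial transhydrogenase that is mutated in the C57BL/6J strain, was higher in KO sham by 1.10 ± 0.11 (adjusted p = 0.000198) and stood at 0.50 ± 0.11 in TAC (adjusted p = 0.0508). Another Nnt probe set gave 0.89 ± 0.14 in sham (adjusted p = 0.0106) and 0.54 ± 0.14 in TAC (adjusted p = 0.0964). With the first, KO arrays read 28077 to 34447 in sham and 18560 to 22467 in TAC. WT arrays read 12964 to 15141 in sham and 12800 to 15735 in TAC. A difference in strain background between the genotypes is not given by the labels, and its part in the 3 falls was not tested. The arrays were scaled alike, with median intensity between 108.3 and 163 and a mean correlation with their own group between 0.895 and 0.942.

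Markers of other cell types that could hold these transcripts were set beside them. Of 10 liver and 10 neutrophil markers with a probe set, 5 of each list were tested, and 0 were called in any comparison. The 10 liver markers summed to 748.7 to 1199 in KO sham and 650.5 to 869.5 in WT sham, and to 561.3 to 1190 in KO TAC and 776.1 to 1256 in WT TAC. The defining liver gene Alb was at 118.9 or less on every KO array, and at 147.7 or less on every WT array. Neutrophil markers summed to 1102 to 1891 in KO sham and 1554 to 1925 in WT sham, and to 874.3 to 1708 in KO TAC and 1403 to 2823 in WT TAC, with overlap in both. All 5 tested neutrophil markers had a lower mean in KO TAC than in WT TAC, as Plbd1 had, with a median log2 difference of -0.80 and a range of -1.41 to -0.07 (the lowest adjusted p was 0.194). Their median was -0.18 in sham, and their part in the Plbd1 difference was not tested. The summed signal of 12 macrophage markers ran the other way from Plbd1, at 28183 to 31602 in KO sham and 24116 to 27098 in WT sham, and 31927 to 39567 in KO TAC and 22461 to 30330 in WT TAC.

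Of the macrophage markers, C1qb was called higher in KO TAC, by 0.64 ± 0.11 (adjusted p = 0.015). The call was lost without WT TAC replicate 4, and without the 3 arrays set apart by spike-in signal. Fibroblast markers had 0 of 8 called in sham and 4 of 8 higher in KO TAC, and 4 rose after TAC in KO hearts, where 0.488% of all probe sets rose, among them Postn by 1.97 ± 0.21 (adjusted p = 0.000913). The fibroblast count in KO versus WT TAC was 1 or 2 without replicate 3 or 4 of KO TAC or replicate 2 or 4 of WT TAC, and 0 without the 3 arrays set apart by spike-in signal; without those 3 arrays, 1 of 8 rose after TAC in KO. Of 6 atrial markers, Nppa rose after TAC in KO hearts by 1.24 ± 0.16 (adjusted p = 0.00244), and 0 were called between genotypes. Cardiomyocyte, endothelial and smooth muscle markers gave 0 calls in every comparison.

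The macrophage sums above separated KO from WT without overlap in both settings. The smooth muscle, cardiomyocyte, fibroblast and atrial sums each did so in at least 1 setting. The part of these cell types in the 3 falls was not tested. Smooth muscle markers summed to 24757 to 31063 in KO sham and 33090 to 35650 in WT sham. Cardiomyocyte markers summed to 504764 to 636450 in KO TAC and 653456 to 891856 in WT TAC, but to 594356 to 701284 in KO sham and 532322 to 636681 in WT sham. Fibroblast markers summed to 63488 to 70779 in KO TAC and 43766 to 57051 in WT TAC. Atrial markers summed to 28622 to 55815 in KO sham and 15956 to 28490 in WT sham, and to 58320 to 71363 in KO TAC and 34205 to 49475 in WT TAC. Nppa had the highest mean of these markers in each group, at 26163 in KO sham, 19231 in WT sham, 61996 in KO TAC and 39220 in WT TAC. The highest KO sham sum, 55815, stood far above the group's median of 29020 and was not Nppa alone. In KO sham, Nppa reached 29135, Myl7 12058, Myl4 8451 and Sln 5816. Every atrial marker except Nppa overlapped between genotypes in both settings. The median log2 difference of the 6 atrial markers, KO minus WT, was 0.75 in sham and 1.07 in TAC, with none called.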

How the data were processed

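Left ventricular RNA was isolated with Trizol, labelled with biotin in a one-cycle protocol and hybridised to Affymetrix mouse arrays, as the series' design text and, per the labels, the protocols state. The authors deposited linear signal intensity; the submitters' processing notes name GCOS 1.4. On each of the 16 arrays the mean of the middle values (2nd to 98th percentile) was 500, so if many bright genes shift together, the rest appear to shift the opposite way. Detection calls and algorithm settings were not used here. The number of arrays and their spread limit the precision.

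Intensity below 11.9, the 10th percentile, was raised to it before log2 was taken. The 45101 probe sets comprised 64 controls, 34945 with 1 symbol, 932 with several and 9160 with none; 34741 were matched by gene ID to a RefSeq table of GRCm38.p6. The dimmest 40% of non-control probe sets were left out. A model with 1 coefficient per group was fitted across all arrays by limma 3.58.1 (R 4.3.3), with two-sided tests, Benjamini-Hochberg adjustment over 27022 probe sets and calls at adjusted p under 0.05. It was tested on simulated data. Groups come from the sample titles. Errors after ± are standard errors for differences and SD for levels.

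The members, gene lists and marker lists were chosen with earlier results of these data known. Genes named are the members, the 5 nearest in profile to each, up to 4 called genes of each list or the 2 with the smallest p, called neighbours on the chromosome, Ppara and Nnt. Gstz1, Plbd2, Ppp3ca, Ppp3r1 and Alb were added for their roles after their values were seen, and Qdpr and Hpd to describe their list. Myl7, Myl4 and Sln were named to describe the atrial sums. A list gene is represented by its brightest probe set. Some list genes are not reported here, and Hgd, Chp2 and Ppp3r2 were below the filter. The alternatives changed the normalization (quantile, or arrays centred on medians), the floor, the filter, the choice of probe sets, the variance model (trend with robust fitting, weights per array, a fit to the compared groups alone), the replicate block, and the arrays included (each left out in turn, and 3 with outlying spike-in signal left out together). Figures were drawn with matplotlib 3.10.9.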

Additional observations from a re-analysis of the deposited data

Results flagged for a closer look

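The Fah signal after TAC deviated from sham with opposite signs in the 2 genotypes, and neither response passed limma's test (adjusted p = 0.726 in KO and 0.757 in WT). Each of the 4 KO TAC arrays lay above the KO sham mean, and each of the 4 WT TAC arrays lay below the WT sham mean. The KO groups overlapped, with 225.6 to 298.1 in KO sham and 274.4 to 303.4 in KO TAC. How many other probe sets show the same pattern was not counted. The response, TAC minus sham, was 0.12 ± 0.11 in KO and -0.21 ± 0.11 in WT on the log2 scale, a difference of 0.33 ± 0.15 (SE). The difference was not tested, because the genotype comparisons that make it up were the ones that chose the gene.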

How the results depend on the processing

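All 228 genotype values of the 4 probe sets stayed negative under 29 alternatives. Centring arrays on their medians moved the TAC difference of Fah to -1.48 and of Plbd1 to -1.56, and leaving out the 3 arrays with extreme spike-in signal moved that of Tesc 1418743_a_at to -2.05 and of Plbd1 to -1.54. None of the 338 TAC values of the members under the alternatives was called by limma (lowest adjusted p 0.167, Plbd1 in KO). Signs of TAC values near 0 turned: Plbd1 in WT to 0.0058 with quantile normalization; Tesc 1418744_s_at in WT to -0.11 with centring and -0.028 with array weights; and without the 3 arrays, Fah averaged over genotypes to 0.00424, Tesc 1418744_s_at to -0.030 averaged, -0.047 in KO and -0.012 in WT, and Tesc 1418743_a_at to -0.17 in KO. Leaving out single arrays gave ranges of -0.055 to 0.10 for Tesc 1418744_s_at in WT, -0.079 to 0.011 for Plbd1 in WT and -0.00481 to 0.18 for Tesc 1418743_a_at in KO.

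Counts of called probe sets moved more; causes other than fewer arrays or other sets of probe sets were not tested. They were 89 (14 higher, 75 lower) for KO versus WT in sham, 249 (112 higher, 137 lower) in TAC, 144 (97 higher, 47 lower) for TAC averaged over genotypes, 197 (132 higher, 65 lower) in KO and 0 in WT. With centring, the counts were 44 in sham (5 higher, 39 lower), 58 averaged (49 higher, 9 lower), 118 in KO (113 higher, 5 lower) and 1 in WT. With no filter they were 50 in sham, 114 in TAC (35 higher, 79 lower), 71 averaged and 84 in KO, and with the dimmest 60% left out 422 in TAC (228 higher, 194 lower), 271 averaged and 427 in KO. With 1 probe set a gene, 217 were called averaged. With trend and robust, they were 151 in sham, 586 in TAC, 384 averaged, 503 in KO and 1 in WT. Array weights gave 313 in KO and 2 in WT, and quantile normalization 3 in WT. Only the arrays compared gave 34 in sham, 39 in TAC (9 higher, 30 lower) and 36 in KO. Without the 3 arrays they were 58 in TAC (11 higher, 47 lower), 19 averaged, 36 in KO and 3 in WT.

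Leaving out single arrays gave 45 to 97 in sham, 120 to 231 in TAC, 73 to 128 averaged, 91 to 230 in KO and 0 to 5 in WT. In sham, leaving out any of the 8 arrays compared gave between 45 and 59; in TAC, KO TAC replicate 2 gave 120, KO TAC replicate 3 gave 123 and WT TAC replicate 4 gave 127. Averaged, the lowest count was 73, without WT sham replicate 2, and in KO it was 91, without KO TAC replicate 2; in WT, 5 came without WT TAC replicate 3. Ctsz in KO after TAC lost its call without KO sham replicate 1 or 4 or KO TAC replicate 2 or 3 (adjusted p up to 0.0706). Without the 3 arrays, the KO versus WT TAC calls of Ctsz (adjusted p = 0.222), Rcan1 (0.227), Acat1 (0.252), Fbxo21 (0.164), Emp1 (0.438) and Gm30873 (0.143) were lost by limma. No macrophage marker was called in that fit, so the call of C1qb was lost as well. That of Fbxo21 was also lost with centring (0.141). No pairing by replicate number was seen, as none of 24 same-numbered pairs had deviations correlated over 0.1 (-0.115 to 0.0845). Pairs with unlike numbers were not set beside them, so this check cannot show that the samples were unpaired. With the replicate block the counts were 38 in sham, 152 in TAC (48 higher, 104 lower), 85 averaged and 120 in KO.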
